A study of Mus musculus with 5 samples.

Results

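The collagen chain genes of the mouse were followed through the tumour cells and the stroma of 5 synovial sarcoma (SyS) tumours measured by single-cell RNA-seq. Every feature whose symbol has the form Col, number, a, number was taken, which gave 44 genes among the 32286 features counted. All tumours came from hSS2 mice, which express the SS18::SSX2 fusion from the Rosa26 locus after Cre recombination, and were raised by injecting TATCre protein into a limb in the second week of life. The mice were of mixed strain (CB57Bl/6-svJ), their age at harvest was given only as a range for the whole study, and no normal tissue or other genotype was among the samples. TATCre is an injected protein and Rosa26 is active in many cell types, so the cell of origin was not restricted by a promoter. The labels put 2 tumours in BP (biphasic, with an epithelial component beside spindle cells), and 1 each in MP (monophasic, spindle cells), MP+BP and PD+MP (poorly differentiated and monophasic). BP 1 and BP 2 start with the same number in their labels, and as no source says what it stands for, both may come from 1 animal. The histological label was read on tissue beside the piece that was dissociated.

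The libraries counted unique molecular identifiers (UMIs) at the 3′ end of transcripts, so that each captured RNA molecule counts 1 time whatever the length of its gene. Of 51670 cell barcodes with 89996321 to 118649103 UMIs per tumour, 39559 cells (76.6%) passed the filters, with median UMI counts between 6335.5 and 8535 per tumour. Between 15 and 33 barcodes were shared by any pair of tumours. Levels below are in CPM, the UMIs of a gene in all cells of a class and tumour per 1000000 UMIs of that class and tumour. Values in parentheses as mean ± SD are over 5 tumours unless another n is given. PD+MP carried Uty, a transcript of the Y chromosome, at 134 CPM in SyS-like cells against 0.011 to 0.0463 in the other tumours.

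Cells were clustered without the collagen genes and clusters were named from fixed markers, none of them a collagen. Tumour cells (SyS-like, 28744 cells) made up 72.7% of kept cells, and 17 of 30 clusters. Pericyte-like cells, the contractile cells that wrap small vessels, numbered 1243 (39 to 532 per tumour), and endothelial-like cells numbered 2421 (78 to 649 per tumour). Fibroblast-like cells numbered 140, of which 122 came from PD+MP, so this class is given for PD+MP alone, with no replicate. The SyS-like name was checked against EGFP, a reporter entry of the feature list that was used neither for clustering nor for naming. EGFP lay at 30.9 to 42.4 CPM in SyS-like cells, at 0 to 6.39 CPM in pericyte-like cells, at 0 to 1.68 CPM in endothelial-like cells and at 0.633 to 2.55 CPM in macrophage-like cells. It was not confined to cells named SyS-like, as it lay at 17.7 to 37.6 CPM in cells of unnamed clusters. Of the 175 EGFP UMIs of unnamed cells, 80 and 93 lay in clusters 14 and 17. The marker list that matched these clusters best was that of SyS, with 7 and 5 markers. Neutrophil-like cells held 11.5 to 33.8 CPM (12 UMIs, 3 tumours), and the fibroblast-like cells of PD+MP 6.76 CPM (8 UMIs). Macrophage-like cells (3607 cells) served as the measure of free collagen RNA in the droplets, and their summed collagen level was 118 to 248 CPM.

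Collagens are extracellular proteins whose chains coil together into rope-like helices. Fibrillar collagens assemble into the tensile fibrils of skin, bone, tendon and cartilage, type IV collagens form the sheet-like network of basement membranes that underlie epithelia and surround vessels, and the remaining families form finer networks, beaded filaments, links between fibrils or membrane-anchored chains. In connective tissue fibroblasts are the main source of fibrillar collagen, while endothelial cells and pericytes build the vascular basement membrane together.

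**Figure D1:**
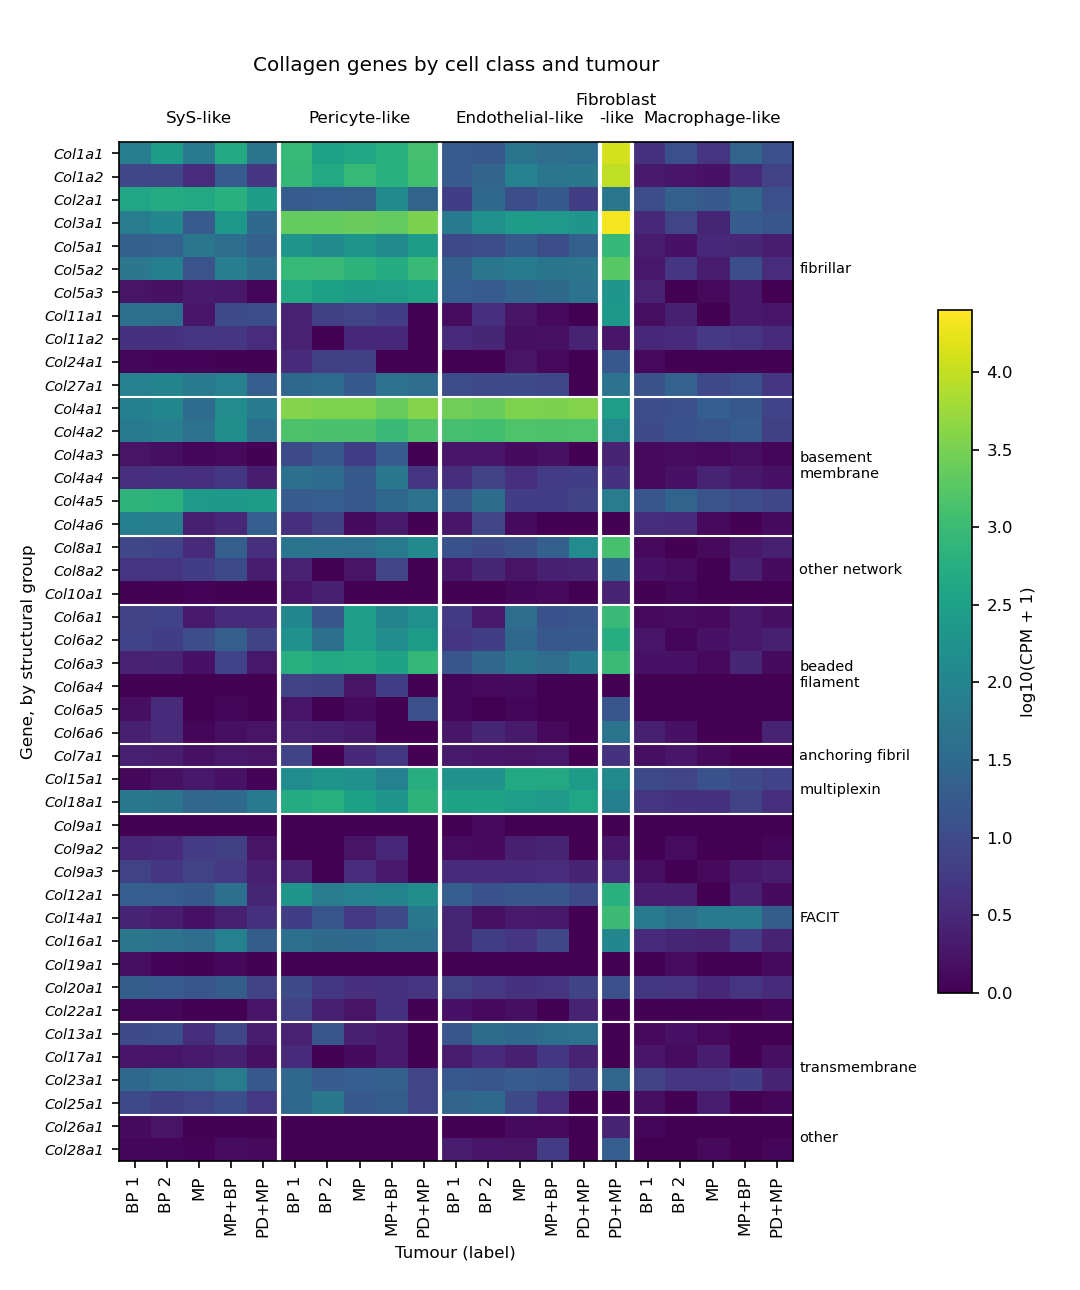
Level of each collagen gene (rows, by structural group) in each class of cells and tumour (columns), as log10(CPM + 1). The SyS-like columns are marked by Col2a1 and Col4a5, the pericyte-like and endothelial-like columns by Col4a1 and Col4a2, and the fibroblast-like column of PD+MP by Col1a1, Col1a2 and Col3a1.

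Summed over all 44 genes, collagen RNA made up a smaller part of the RNA of SyS-like cells than of pericyte-like, endothelial-like or fibroblast-like cells. It amounted to 1745 CPM ± 650 (SD, n = 5) in SyS-like cells, 5811 CPM ± 1010 in endothelial-like cells and 12115 CPM ± 2440 in pericyte-like cells, and to 53355 CPM in the fibroblast-like cells of PD+MP. The ranges of these classes did not overlap, with 961 to 2417 CPM in SyS-like cells, 4585 to 6822 CPM in endothelial-like cells and 9117 to 15732 CPM in pericyte-like cells. The classes also differed in which collagens they held. In SyS-like cells, 51.5% ± 10.2 of collagen UMIs belonged to fibrillar genes and 35.3% ± 11.3 to type IV genes, led by Col2a1 (27.2% ± 7.47) and Col4a5 (24.3% ± 10.7). In endothelial-like cells, 79.6% ± 2.32 belonged to type IV genes, of which Col4a1 alone held 54.7% ± 2.37. Pericyte-like cells divided theirs between fibrillar (44.8% ± 3.49) and type IV genes (40.3% ± 4.21), and the fibroblast-like cells of PD+MP held 87.9% in fibrillar genes, with Col3a1 at 40.7%.

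The classes were then compared within tumours, on UMIs summed per class and tumour, with the tumour as a block in edgeR's quasi-likelihood test fitted on all genes. Between SyS-like and pericyte-like cells, 42 of the 44 genes passed the filter on low counts. Of these, 8 were higher in SyS-like cells, where 19.9% of all 20071 genes tested were, and 23 were lower, where 14.1% of all genes were. The median log2 fold change of the 42 genes was -2.54, against 0.23 over all genes tested. Between SyS-like and endothelial-like cells, 14 of 40 genes were higher (30.6% of all 20511 genes tested) and 12 were lower (21.5%), with a median of -0.23 against 0.22 over all genes. Both comparisons use the same SyS-like sums. As separate animals were not stated for every tumour, p-values measure the spread between these tumours. Between pericyte-like and endothelial-like cells, 22 of 30 genes were higher in pericyte-like cells (23.2% of all 12671 genes tested) and 1, Col13a1, was lower (22.7%), with a median of 2.95 against 0.01. With DESeq2 the SyS-like and pericyte-like cells gave 4 genes higher and 23 lower, where it called 30.4% of all genes in either direction. The median of all genes moved with the scaling, to 0.43 with total counts and -0.31 with DESeq2 for SyS-like against pericyte-like cells, to 0.41 and -0.16 for SyS-like against endothelial-like cells, and to 0.20 with DESeq2 for pericyte-like against endothelial-like cells.

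**Figure D2:**
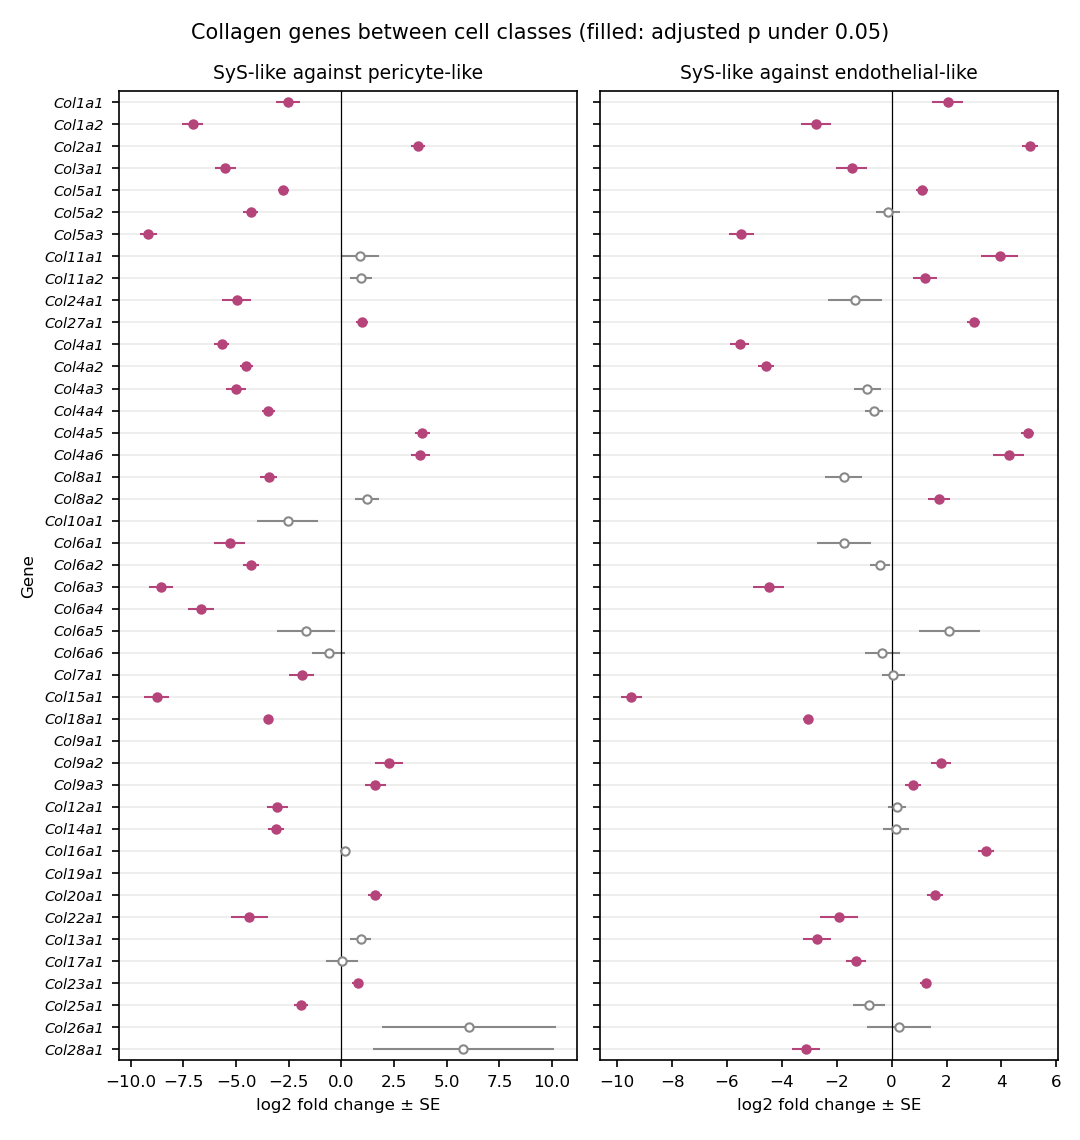
Log2 fold change ± SE of the collagen genes (rows) between pairs of cell classes within tumours, by edgeR's quasi-likelihood test over 5 tumours, with filled points for adjusted p under 0.05. Col2a1, Col4a5 and Col4a6 lie to the right in both comparisons of SyS-like cells, and Col4a1, Col4a2, Col15a1 and Col18a1 to the left in both.

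Among the fibrillar genes, Col2a1, which encodes the type II collagen of cartilage, was the collagen with the highest mean level in SyS-like cells. It lay at 384 CPM in BP 1, 504 in BP 2, 456 in MP, 629 for MP+BP and 272 for PD+MP. In pericyte-like cells it lay at 17.9, 19.9, 20.3, 129 and 25.5 CPM in the same order, and in endothelial-like cells at 5.46, 28.8, 10.6, 16.6 and 5.32 CPM. Every SyS-like value was above every value of these classes, and most values outside SyS-like cells were within or near the 10.1 to 27.8 CPM of macrophage-like cells, the level of free RNA. The exception was the pericyte-like cells of MP+BP, in which the summed SyS markers were also highest (483 CPM against 172 to 408 CPM in the other tumours). Col2a1 was higher in SyS-like than in pericyte-like cells by 3.64 ± 0.33 on the log2 scale (SE, edgeR adjusted p = 1.4e-06) and higher than in endothelial-like cells by 5.04 ± 0.28 (edgeR adjusted p = 3.8e-07). Of the genes that partner type II collagen in cartilage, Matn1, Hapln1 and Matn4 were higher in SyS-like than in pericyte-like cells, and these calls were not stable: Matn1 was lost in 11 alternatives, each tumour left out in turn among them (highest adjusted p 0.59), Hapln1 without MP (0.074) or MP+BP (0.058) and with doublets kept (0.44), and Matn4 with fibroblast-like cells added to the pericyte-like sums (0.14) and without the block (0.065). Acan, the core protein of the large cartilage proteoglycan, was lower, a call that was lost without BP 1 (0.062) or MP (0.16), and lay at 0.0142 to 0.278 CPM in SyS-like cells.

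The chains of type I collagen differed widely in level in SyS-like cells. Col1a1, which encodes the chain that is present in excess in the type I fibril, lay in SyS-like cells at 73.9 CPM in BP 1, 259 in BP 2, 64.1 in MP, 497 for MP+BP and 49.1 for PD+MP. Its partner Col1a2 lay at 7.76, 7.49, 2.59, 18.2 and 3.94 CPM in the same cells. In pericyte-like cells the chains were close to each other, with Col1a1 at 879, 326, 441, 580 and 1235 CPM and Col1a2 at 835, 449, 899, 610 and 1187 CPM. The ratio of Col1a1 to Col1a2 UMIs was therefore 9.53 to 34.6 in SyS-like cells, 0.49 to 1.05 in pericyte-like cells, 0.541 to 0.943 in endothelial-like cells and 1.32 in the fibroblast-like cells of PD+MP, and the SyS-like values did not overlap with those of these classes. In macrophage-like cells, the measure of free RNA, the ratio was 1.74 to 13. Col1a1 was lower in SyS-like than in pericyte-like cells by a log2 fold change of -2.53 ± 0.58 (edgeR adjusted p = 0.0038) and higher than in endothelial-like cells by 2.04 ± 0.55 (edgeR adjusted p = 0.011). Col1a2 was lower in SyS-like cells than in both, with -7.04 ± 0.50 against pericyte-like cells (edgeR adjusted p = 1.5e-07) and -2.77 ± 0.55 against endothelial-like cells (edgeR adjusted p = 0.0019). Macrophage-like cells held Col1a2 at 0.637 to 6.36 CPM, and in PD+MP this was above the level in SyS-like cells. When the sums of pericyte-like and fibroblast-like cells were pooled, the Col1a1 difference no longer passed the threshold (edgeR adjusted p = 0.062). On GRCm38, Col1a1 lies on chromosome 11 (chr11:94936224-94953042, plus strand) and Col1a2 on chromosome 6 (chr6:4504814-4541544, plus strand), so the chains are not neighbours.

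Col3a1 and Col5a2, which encode chains of the type III and type V collagens that join type I fibrils in loose connective tissue, were higher in pericyte-like than in SyS-like cells. Col3a1 lay in SyS-like cells at 70.1 CPM in BP 1, 109 in BP 2, 17.2 in MP, 217 for MP+BP and 31.4 for PD+MP, and in pericyte-like cells at 2304, 2325, 2461, 2190 and 3394 CPM. It was the most abundant collagen of the fibroblast-like cells of PD+MP, with 21693 CPM (95% exact Poisson interval 21429 to 21960). Every pericyte-like value was above every SyS-like value, and the log2 fold change was -5.50 ± 0.51 (edgeR adjusted p = 1.9e-06). Against endothelial-like cells, which held 63.4, 158, 255, 229 and 193 CPM, the SyS-like values overlapped, and the difference of -1.46 ± 0.56 stood at the threshold (edgeR adjusted p = 0.049). It was lost without BP 2 (0.059), MP (0.11) or PD+MP (0.14). Col5a2 lay at 12.6 to 79.3 CPM in SyS-like cells, 527 to 969 CPM in pericyte-like cells and 1814 CPM in the fibroblast-like cells of PD+MP. It was lower in SyS-like than in pericyte-like cells by -4.30 ± 0.36 (edgeR adjusted p = 7.7e-07), while its difference from endothelial-like cells was -0.14 ± 0.45 (edgeR adjusted p = 0.82). Col5a3, singled out after its values were seen, had the most negative fold change of the fibrillar genes between SyS-like and pericyte-like cells, with 0.142 to 1.11 CPM against 268 to 445 CPM and a log2 fold change of -9.16 ± 0.41 (edgeR adjusted p = 1.4e-09).

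Of the 11 fibrillar genes, all of which passed the filter, 2 were higher in SyS-like than in pericyte-like cells (Col2a1 and Col27a1, the latter a cartilage-associated fibrillar chain whose call was lost without BP 1, BP 2 or MP, with adjusted p of 0.079, 0.07 and 0.052) and 7 were lower (Col1a1, Col1a2, Col3a1, Col5a1, Col5a2, Col5a3 and Col24a1). Of all genes tested in that comparison, 19.9% were higher and 14.1% lower. Against endothelial-like cells, 6 fibrillar genes were higher (Col1a1, Col2a1, Col5a1, Col11a1, Col11a2 and Col27a1) and 3 were lower (Col1a2, Col3a1 and Col5a3), where 30.6% and 21.5% of all genes were. Between the vessel classes, all 10 fibrillar genes that passed the filter were higher in pericyte-like cells, where 23.2% of all genes tested were. Among them were Col1a1 by 4.38 ± 0.29 (edgeR adjusted p = 2e-08) and Col3a1 by 3.93 ± 0.24 (edgeR adjusted p = 1e-08). The Col2a1 difference between the vessel classes (1.44 ± 0.38, edgeR adjusted p = 0.0068) lay at the level of free RNA in most tumours and was lost without MP+BP (0.065).

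The 250 bases before the start of Col3a1 and Col5a3 are shown because both genes were high in pericyte-like cells and far lower in SyS-like cells. The sequences are those of RefSeq on GRCm38.p6, in the direction of transcription and ending at the base before the start. Capitals mark matches on either strand to the promoter motifs CCAAT (bound by NF-Y), GGGCGG (the GC box) and TATAAA (the TATA box). Col3a1 lies at chr1:45311538-45349706 on the plus strand, with the stretch shown at chr1:45311288-45311537, and the stretch of Col5a3 lies at chr9:20815068-20815317 on the minus strand.
Col3a1: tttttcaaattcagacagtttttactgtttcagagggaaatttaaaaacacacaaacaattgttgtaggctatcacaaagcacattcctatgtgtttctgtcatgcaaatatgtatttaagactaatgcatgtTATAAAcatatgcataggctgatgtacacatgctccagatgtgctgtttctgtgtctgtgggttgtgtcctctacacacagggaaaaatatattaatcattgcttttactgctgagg
Col5a3: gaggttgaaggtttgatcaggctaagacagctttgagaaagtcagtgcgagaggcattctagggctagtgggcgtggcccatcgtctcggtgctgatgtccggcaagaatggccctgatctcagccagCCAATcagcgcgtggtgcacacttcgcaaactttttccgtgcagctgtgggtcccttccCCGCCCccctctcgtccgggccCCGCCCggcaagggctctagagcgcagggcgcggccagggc
The Col3a1 stretch held 1 TATAAA match, 117 bases before the start, and neither of the other motifs. The Col5a3 stretch held 1 CCAAT match at 122 bases and GGGCGG matches at 63 and 41 bases before the start, and no TATAAA. A promoter entry was found for 35 of the 44 genes (Col1a1 and Col2a1 had none), with 38 entries in all, since Col6a2, Col9a1 and Col18a1 have more than 1. CCAAT was present in 13 of the 38 entries (34.2%), GGGCGG in 22 (57.9%) and TATAAA in 5 (13.2%). Among 32851 promoters of the same length the shares were 33.8%, 32.7% and 12.4%. A match describes the letters only.

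The type IV genes differed by pair. Col4a1 and Col4a2 were higher in both vessel classes than in SyS-like cells, and Col4a5 and Col4a6 were lower in them. Col4a3 and Col4a4 were higher in pericyte-like than in SyS-like and endothelial-like cells. Col4a1 and Col4a2 encode the chains of the basement membrane network found in most tissues, and Col4a5 and Col4a6 encode chains of a network found under some epithelia and around smooth muscle. In SyS-like cells, Col4a5 lay at 731 CPM in BP 1, 642 in BP 2, 228 in MP, 222 for MP+BP and 255 for PD+MP. In pericyte-like cells it lay at 17.9, 19.9, 14.7, 28.8 and 43.7 CPM and in endothelial-like cells at 14.1, 35.2, 5.19, 5.32 and 7.1 CPM. All SyS-like values were above all values of the vessel classes, where macrophage-like cells held 7.67 to 24.9 CPM. Col4a5 was higher in SyS-like than in pericyte-like cells by 3.83 ± 0.36 (edgeR adjusted p = 1.9e-06) and higher than in endothelial-like cells by 4.96 ± 0.24 (edgeR adjusted p = 1.7e-07). Its neighbour Col4a6, singled out after its values were seen, lay in SyS-like cells at 77.9 CPM in BP 1, 74.2 in BP 2, 1.41 in MP, 2.11 for MP+BP and 19.6 for PD+MP, so that it was high in both BP tumours and near 0 in MP and MP+BP. In pericyte-like cells it was at 0 to 5.69 CPM, with a log2 fold change of 3.74 ± 0.46 (edgeR adjusted p = 2.3e-05). The ratio of Col4a6 to Col4a5 UMIs in SyS-like cells was 0.107 and 0.116 in the BP tumours, 0.0769 in PD+MP, 0.00953 in MP+BP and 0.00617 in MP.

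Col4a5 (chrX:141475385-141689234, plus strand) and Col4a6 (chrX:141165403-141474076, minus strand) lie head to head on the X chromosome with 1309 bases between these annotated starts. Their upstream stretches, from RefSeq on GRCm38.p6 with the same motifs in capitals, are shown because these genes were the type IV genes that were higher in SyS-like cells. That of Col4a5 (chrX:141475169-141475384, plus strand, 216 bases) was cut where the first annotated exon of Col4a5 begins, and that of Col4a6 lies at chrX:141474077-141474326 on the minus strand.
Col4a5: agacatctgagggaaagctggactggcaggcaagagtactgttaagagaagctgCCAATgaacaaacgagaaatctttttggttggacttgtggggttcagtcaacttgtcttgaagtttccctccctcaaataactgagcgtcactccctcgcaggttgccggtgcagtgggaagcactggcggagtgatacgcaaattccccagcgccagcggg
Col4a6: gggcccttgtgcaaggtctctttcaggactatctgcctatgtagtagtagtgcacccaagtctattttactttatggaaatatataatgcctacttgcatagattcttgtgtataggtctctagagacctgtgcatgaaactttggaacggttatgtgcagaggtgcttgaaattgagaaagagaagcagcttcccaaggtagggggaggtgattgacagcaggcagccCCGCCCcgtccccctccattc
The Col4a5 stretch held 1 CCAAT match, 196 bases before the start used by RefSeq, and the Col4a6 stretch 1 GGGCGG match at 21 bases. A GGGCGG match of Col4a5 at 30 bases lies beyond the stretch shown. Neither stretch held TATAAA.

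Col4a1 was the leading collagen of both vessel classes, followed by Col4a2 in endothelial-like cells and by Col3a1 in pericyte-like cells. Col4a1 lay at 3803, 3571, 3575, 2411 and 3864 CPM in the pericyte-like cells and at 2796, 2356, 3540, 3342 and 3879 CPM in the endothelial-like cells of BP 1, BP 2, MP, MP+BP and PD+MP. In SyS-like cells it lay at 79.5, 104, 33.7, 134 and 61.6 CPM, above the 6.53 to 19.4 CPM of macrophage-like cells in every tumour. Col4a1 was lower in SyS-like than in pericyte-like cells by -5.68 ± 0.34 (edgeR adjusted p = 2.7e-08) and lower than in endothelial-like cells by -5.54 ± 0.35 (edgeR adjusted p = 8.8e-07). Col4a2 lay at 39.3 to 147 CPM in SyS-like cells, 966 to 1484 CPM in pericyte-like cells and 1174 to 1567 CPM in endothelial-like cells, with log2 fold changes of -4.51 ± 0.32 (edgeR adjusted p = 1.3e-07) and -4.58 ± 0.28 (edgeR adjusted p = 7.5e-07). The vessel classes could not be told apart by these genes, with a pericyte-like against endothelial-like difference of 0.13 ± 0.14 for Col4a1 (edgeR adjusted p = 0.47) and -0.09 ± 0.13 for Col4a2 (edgeR adjusted p = 0.61), and the sign of each changed in at least 1 of the alternatives below. The ratio of Col4a1 to Col4a2 UMIs was 2.5 to 2.65 in pericyte-like cells, 2.01 to 2.48 in endothelial-like cells and 0.749 to 1.57 in SyS-like cells. Col4a1 (chr8:11198423-11312826, minus strand) and Col4a2 (chr8:11312805-11449287, plus strand) also lie head to head, with starts 21 bases apart.

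Col4a4, a chain of the network known from the kidney glomerulus, lay at 1.18 to 4.13 CPM in SyS-like cells, 3.64 to 56.5 CPM in pericyte-like cells and 2.73 to 6.15 CPM in endothelial-like cells. It was lower in SyS-like than in pericyte-like cells by -3.47 ± 0.30 (edgeR adjusted p = 1e-06), and its partner Col4a3 was called in the same direction. Both were higher in pericyte-like than in endothelial-like cells, Col4a4 by 2.96 ± 0.32 (edgeR adjusted p = 3.4e-06). Of the 6 type IV genes, 2 were thus higher and 4 lower in SyS-like than in pericyte-like cells, and 2 were higher and 2 lower than in endothelial-like cells. The shares over all genes tested were 19.9% and 14.1% against pericyte-like cells, and 30.6% and 21.5% against endothelial-like cells.

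The multiplexins, collagens of the basement membrane zone, were higher in both vessel classes than in SyS-like cells. Col15a1, which encodes a proteoglycan that bridges basement membranes to nearby fibrils, lay at 172, 176, 472, 450 and 250 CPM in endothelial-like cells and at 0.262, 0.552, 0.96, 0.61 and 0.0996 CPM in SyS-like cells, in the order given above. Its log2 fold change was -9.49 ± 0.38 (edgeR adjusted p = 5.3e-08), and against pericyte-like cells (85.3 to 543 CPM) it was -8.76 ± 0.58 (edgeR adjusted p = 7.4e-08). Col18a1, the source of the fragment endostatin, was at 27.7 to 60.9 CPM in SyS-like cells against 230 to 401 CPM in endothelial-like and 200 to 685 CPM in pericyte-like cells, with -3.05 ± 0.17 (edgeR adjusted p = 3.8e-07) and -3.46 ± 0.18 (edgeR adjusted p = 6.4e-09). Between the vessel classes, Col15a1 differed by -0.62 ± 0.36 (edgeR adjusted p = 0.18), and Col18a1 was higher in pericyte-like cells by 0.41 ± 0.15 (edgeR adjusted p = 0.036), which was lost without BP 1, BP 2 or PD+MP (adjusted p between 0.13 and 0.19).

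Most beaded filament genes were lower in SyS-like than in pericyte-like cells. Col6a3, the chain that completes the type VI microfibril, lay at 595, 461, 513, 338 and 852 CPM in pericyte-like cells, at 14.3 to 62.1 CPM in endothelial-like cells and at 0.618 to 6.56 CPM in SyS-like cells. It was lower in SyS-like than in pericyte-like cells by -8.57 ± 0.58 (edgeR adjusted p = 9e-08) and lower than in endothelial-like cells by -4.49 ± 0.57 (edgeR adjusted p = 0.0001). Col6a1 and Col6a2 lay at 1.04 to 6.56 and 5.57 to 20.9 CPM in SyS-like cells, 14.2 to 281 and 41.2 to 290 CPM in pericyte-like cells and 957 and 548 CPM in the fibroblast-like cells of PD+MP, and were lower in SyS-like than in pericyte-like cells by -5.30 ± 0.75 (edgeR adjusted p = 8.9e-05) and -4.29 ± 0.36 (edgeR adjusted p = 7.6e-07). Col6a6 was at 49 CPM in the fibroblast-like cells of PD+MP. It was at no more than 2.4 CPM in the SyS-like, pericyte-like, endothelial-like and macrophage-like sums of any tumour. In the 3 SyS-like clusters rich in Col1a1 that are described below, it lay at 8.23 to 12.4 CPM. Of the 6 beaded filament genes, 4 were lower in SyS-like than in pericyte-like cells (Col6a4 with Col6a1, Col6a2 and Col6a3), where 14.1% of all genes tested were.

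Network collagens other than type IV were scarce outside fibroblast-like cells. Col8a1, a chain of the hexagonal network of vessel walls and the cornea, lay at 2.46 to 20.9 CPM in SyS-like cells, 44.2 to 120 CPM in pericyte-like cells, 9.23 to 130 CPM in endothelial-like cells and 1340 CPM (95% exact Poisson interval 1275 to 1408) in the fibroblast-like cells of PD+MP. It was lower in SyS-like than in pericyte-like cells by -3.46 ± 0.42 (edgeR adjusted p = 2.2e-05). Its partner Col8a2 was higher in SyS-like than in endothelial-like cells by 1.73 ± 0.41 (edgeR adjusted p = 0.0056), at 1.14 to 8.74 against 0.716 to 1.96 CPM. Col10a1, the network collagen of hypertrophic cartilage, lay at 0.011 to 0.105 CPM in SyS-like cells and at no more than 1.42 CPM in pericyte-like or endothelial-like cells, which rests on 21 UMIs in SyS-like cells and 2 in each of the other classes named.

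The remaining families divided by gene. Among the collagens that decorate fibrils (FACITs), Col16a1 was at 19 to 85.8 CPM in SyS-like and 30.6 to 40.5 CPM in pericyte-like cells, which did not differ detectably (0.17 ± 0.24, edgeR adjusted p = 0.63), and both were above endothelial-like cells (0 to 7.69 CPM), SyS-like cells by 3.43 ± 0.30 (edgeR adjusted p = 8.5e-06). Col20a1 was higher in SyS-like cells (6.3 to 19.2 CPM) than in pericyte-like cells by 1.58 ± 0.33 (edgeR adjusted p = 0.002, and 0.097 with fibroblast-like cells added) and than in endothelial-like cells by 1.58 ± 0.28 (edgeR adjusted p = 0.0011). Col12a1, which binds stressed fibrils in tendon and ligament, was at 1.91 to 39.4 CPM in SyS-like cells against 71.1 to 193 CPM in pericyte-like cells, a log2 fold change of -3.03 ± 0.50 (edgeR adjusted p = 0.00034). Col14a1 was high in the fibroblast-like cells of PD+MP (1041 CPM) and lay in macrophage-like cells (18.9 to 61.9 CPM) above SyS-like cells (0.658 to 3.47 CPM) in every tumour. Its macrophage-like level was not used as a measure of free RNA, and the source of that RNA was not tested. The cartilage-associated Col9a2 and Col9a3 were called higher in SyS-like cells in both comparisons, at means of 3.14 and 4.49 CPM, but each of these calls was lost in at least 1 alternative. Against pericyte-like cells, Col9a2 was lost without BP 1 (0.052) or MP (0.098) and Col9a3 without BP 1 (0.094), BP 2 (0.063) or MP+BP (0.059). Against endothelial-like cells, Col9a2 was lost without the block (0.085) and Col9a3 without any 1 of BP 1 (0.21), BP 2 (0.068), MP (0.14) or MP+BP (0.076).

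Of the transmembrane collagens, Col23a1 lay at 15.1 to 69.7 CPM in SyS-like cells, and was higher than in endothelial-like cells by 1.25 ± 0.20 (edgeR adjusted p = 0.00054). Against pericyte-like cells the 0.77 ± 0.26 for Col23a1 (edgeR adjusted p = 0.031) was lost with DESeq2 (0.07), without BP 2 (0.1), MP (0.071) or MP+BP (0.14), and in several other alternatives. Col13a1, found at sites of cell adhesion such as the neuromuscular junction, was the only collagen called higher in endothelial-like cells (14.3 to 42.6 CPM) than in pericyte-like cells (0 to 12.8 CPM), with -3.31 ± 0.42 for pericyte-like against endothelial-like cells (edgeR adjusted p = 1.8e-05), and it was also lower in SyS-like than in endothelial-like cells by -2.73 ± 0.52 (edgeR adjusted p = 0.0015). Col25a1 was lower in SyS-like than in pericyte-like cells by -1.92 ± 0.34 (edgeR adjusted p = 0.00065, and 0.056 with fibroblast-like cells added), and Col17a1, the hemidesmosome collagen of skin, was at 0.584 to 1.41 CPM in SyS-like cells. Its difference from endothelial-like cells (-1.30 ± 0.36, edgeR adjusted p = 0.012) was lost without BP 2 (0.067) or MP+BP (0.061). Col7a1, which builds the anchoring fibrils beneath skin, was at 0.592 to 1.45 CPM in SyS-like cells and 0 to 6.99 CPM in pericyte-like cells (-1.87 ± 0.59, edgeR adjusted p = 0.024), a call that was lost without BP 1, MP or MP+BP. Col26a1 and Col28a1 were scarce, with means of 0.253 and 0.219 CPM in SyS-like cells and no UMI in any pericyte-like sum. The gene with the lowest mean level in SyS-like cells was Col9a1, with 11 UMIs in all of them.

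The question of how much of each tumour's collagen RNA came from tumour cells was answered by counting collagen UMIs over all kept cells. SyS-like cells held 72.7% of them in BP 1, 87.0% in BP 2, 55.7% in MP, 84.8% for MP+BP and 47.9% for PD+MP, a mean of 69.6% ± 17.4 (SD, n = 5). The value depended on how clusters were named: under the naming rule first tried, which left clusters with SyS markers unnamed and was replaced after the data were seen, the mean share was 53.8% ± 6.75. The exact binomial intervals, which cover counting error only, were narrow, for example 47.6 to 48.1% in PD+MP, since 141057 to 234133 collagen UMIs were counted per tumour. Against the share of all UMIs in SyS-like cells (80.6%, 88.6%, 85.0%, 89.6% and 86.4%), the share of collagen UMIs was lower in 5 of 5 tumours, with differences of -7.92, -1.60, -29.3, -4.78 and -38.6 points. The mean difference was -16.4 points ± 16.5, with p = 0.0625 in the exact two-sided sign-flip permutation test, the smallest p that 5 tumours allow. The tumours with BP in the label had a mean share of 81.5% ± 7.71 (n = 3) and the others 51.8% ± 5.53 (n = 2), without overlap and 29.7 points apart. The exact two-sided permutation test gave p = 0.2, the smallest it can give, so neither test could pass 0.05. The gap by label rests on the final naming rule. An SD of 6.75 over all 5 tumours under the first rule leaves no room for a gap of 29.7 points. Of the clusters left unnamed by that rule, cluster 1 drew 2201 of its 3192 cells from MP+BP. Cluster 6 drew 1441 of 2418 from BP 2, and cluster 7 held 983 from MP+BP and 754 from MP. Because dissociation can lose classes unequally, a share counts the RNA of recovered cells and fewer stromal cells cannot be told apart from less collagen RNA per stromal cell in intact tissue.

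The source of the rest differed between tumours. In MP, pericyte-like cells held 20.1% and endothelial-like cells 23.1% of collagen UMIs, against 3.06% to 9.60% and 2.73% to 13.5% in the other tumours. In PD+MP, 44.7% lay in 122 fibroblast-like cells, which held 1.45% of all UMIs of that tumour. The other 4 tumours held at most 15 fibroblast-like cells each and at most 0.865% of collagen UMIs in them.

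**Figure D3:**
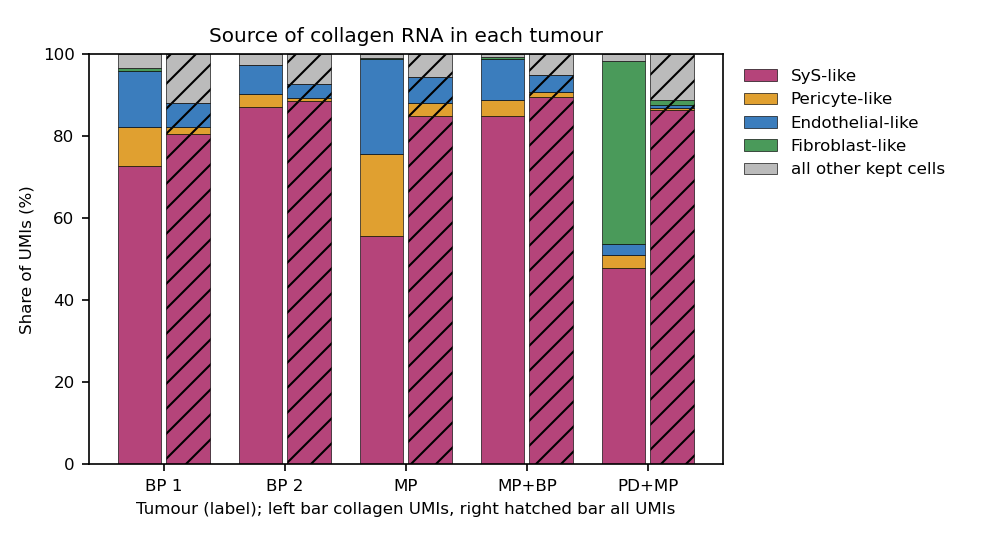
Share of collagen UMIs (left bar, plain) and of all UMIs (right bar, hatched) held by each class of cells in each tumour, in percent. SyS-like cells hold a smaller part of the collagen UMIs than of all UMIs in each tumour, with a difference of -1.60 points in BP 2 and -38.6 points in PD+MP, where 44.7% lie in fibroblast-like cells.

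The share held by tumour cells depended on the collagen family and on the chain. For fibrillar genes the SyS-like share was 81.7% in BP 1, 94.0% in BP 2, 74.8% in MP, 94.1% for MP+BP and 35.1% for PD+MP, and for type IV genes it was 67.7%, 80.6%, 35.8%, 65.1% and 81.9%. PD+MP thus had the lowest fibrillar and the highest type IV share of the 5 tumours. For the remaining network genes the mean was 69.6% ± 32 (14 to 92.2%), for beaded filament genes 46.6% ± 27.9, for multiplexins 53.6% ± 19.1, for FACITs 82.2% ± 18.7 and for transmembrane collagens 90.8% ± 3.64. Shares by gene were ranked among the genes chosen by rule for naming with values, which leave out Col4a6 and Col27a1. Of these, Col2a1 (97.8% ± 0.923) and Col4a5 (97.2% ± 1.62) came almost wholly from SyS-like cells in each tumour, followed by Col16a1 (94.4% ± 3.82), Col23a1 (94.4% ± 3.09) and Col20a1 (94.2% ± 3.13). Col1a1 came from SyS-like cells at 72.6% on average but with a range of 18.4 to 98.4%, Col3a1 at 48.2% (7.6 to 83.0%) and Col1a2 at 31.5% (2.33 to 62.1%). Col4a1 came from SyS-like cells at 34.2% ± 18.8 and from endothelial-like cells at 46.7% ± 13.5, Col6a3 from pericyte-like cells at 53.0% ± 28.6, and Col15a1 from endothelial-like cells at 69.8% ± 23.9. SyS-like cells held 2.76% ± 1.84 of the Col15a1 UMIs, at a level below that of macrophage-like cells (6.53 to 11.8 CPM) in every tumour. Whether that macrophage-like level is free RNA was not tested. In PD+MP it equalled that of Col4a1 (6.53 CPM). Endothelial-like cells of that tumour held Col15a1 at 250 and Col4a1 at 3879 CPM, and fibroblast-like cells held them at 128 and 286 CPM.

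Within the SyS-like cells, Col1a1 was concentrated in few clusters. Of the 17 SyS-like clusters, 3 (numbers 1, 22 and 23) had more Col1a1 than the pericyte-like cluster (581 CPM), at 1157 to 3262 CPM. The other 14 lay between 4.46 and 395 CPM with a median of 19.3 CPM, so the nearest cluster below the threshold was at 395 CPM. As these clusters were chosen by Col1a1, their values are a description with no test. Cluster 1 (3192 cells) was unnamed under the naming rule first tried, while clusters 22 (491 cells) and 23 (385 cells) were SyS-like under both rules. In the same 3 clusters Col1a2 lay at 27.6 to 64.7 CPM, Col3a1 at 818 to 1361 CPM, Col5a2 at 280 to 438 CPM, Col23a1 at 171 to 363 CPM and Col4a1 at 274 to 525 CPM, while Col2a1 (241 to 572 CPM) was within the range of the other SyS-like clusters (219 to 859 CPM) and Col18a1 (12.8 to 16.2 CPM) was below it (28.1 to 89.9 CPM). The ratio of Col1a1 to Col1a2 was 20.9, 32.7 and 118 in clusters 1, 22 and 23. EGFP lay at 36.4 to 38.3 CPM in these clusters, within the 16.5 to 43.0 CPM of the other SyS-like clusters. The 9 fibroblast markers summed to 410, 703 and 459 CPM, against 88.0 to 271 CPM in the other SyS-like clusters, 46.6 CPM in the pericyte-like cluster and 10751 CPM in the fibroblast-like cluster. Lum, a proteoglycan of fibroblasts, lay in the cells of these clusters at 44.0 CPM in PD+MP and at 0.973 to 7.74 CPM in the other tumours. The part of fibroblast RNA in these values was not tested.

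**Figure D4:**
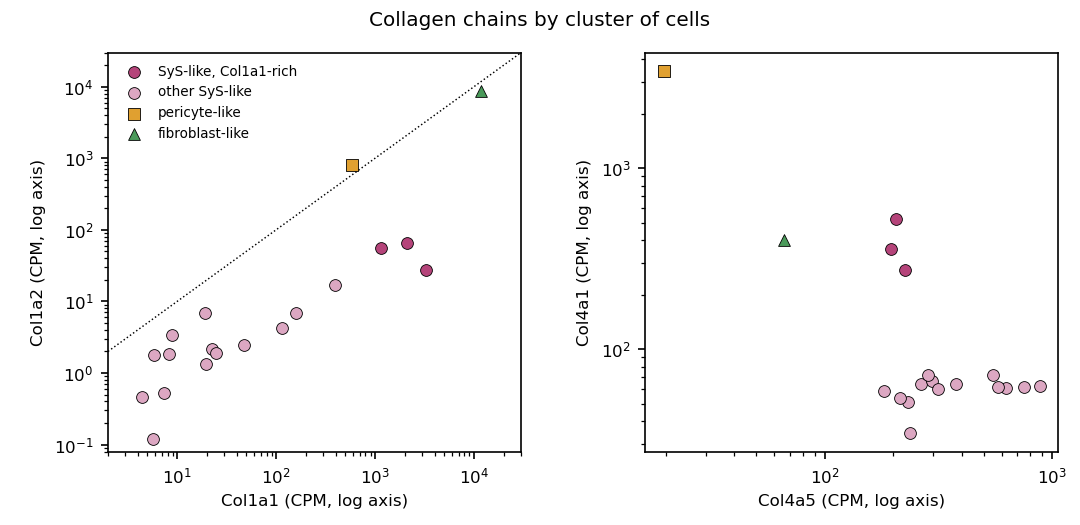
Levels of collagen chains in each cluster of cells (points, CPM on log axes), with clusters marked by class and the 3 SyS-like clusters with Col1a1 above the pericyte-like cluster set apart. In the panel of Col1a1 against Col1a2 the dotted line marks equal levels, with the pericyte-like and fibroblast-like clusters near it and the SyS-like clusters below it. The other panel sets Col4a1 against Col4a5.

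These clusters were unevenly spread over the tumours. They made up 274 SyS-like cells in BP 1, 814 in BP 2, 161 in MP, 2592 for MP+BP and 227 for PD+MP, or 7.28%, 11.8%, 3.11%, 37.5% and 3.80% of SyS-like cells. Cluster 1 drew 2201 of its 3192 cells from MP+BP, and cluster 23 drew 254 of its 385 cells from BP 2. They held 86.8%, 95.9%, 14.1%, 53.3% and 83.1% of the Col1a1 UMIs of SyS-like cells, and 85.3%, 94.0%, 7.11%, 43.2% and 35.0% of the Col1a2 UMIs. Of all collagen UMIs of SyS-like cells they held 13.3%, 27.3%, 3.57%, 41.4% and 12.3%. With these cells left out altogether, the SyS-like share of the remaining collagen UMIs was 69.7%, 82.9%, 54.8%, 76.6% and 44.6%, and the other SyS-like cells held 63.0%, 63.2%, 53.7%, 49.7% and 42.0% of all collagen UMIs of their tumour. Among cells in which EGFP itself was counted (1507 to 2258 per tumour), whatever their class, Col2a1 lay at 484 CPM ± 152, Col4a5 at 422 CPM ± 256, Col1a1 at 176 CPM ± 180 and Col1a2 at 12.1 CPM ± 9.10 (n = 5).

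The tumours with BP in the label (BP 1, BP 2 and MP+BP) were then set against MP and PD+MP, in SyS-like cells. Of 40 collagen genes that passed the filter, none was called at an adjusted p under 0.05 by edgeR, as were 0.0% of all 20850 genes tested. At an unadjusted p under 0.05, 11 were higher with BP in the label (5.16% of all genes) and none lower (4.69%). DESeq2 called 4 of the genes higher (Col3a1, Col6a5, Col8a1 and Col13a1), where it called 2.76% of all genes in either direction. In 18 of the 40 genes every tumour with BP in the label was above both others, which held for 16.5% of all genes, and in none was every one below (10.6%). The median log2 fold change of the 40 genes was 1.05, against -0.02 over all genes tested.

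Among the genes with an unadjusted p under 0.05, Col3a1 had a log2 fold change of 2.34 ± 0.57 (edgeR adjusted p = 0.46), Col1a1 2.20 ± 0.77 (0.48), Col13a1 2.14 ± 0.46 (0.46) and Col8a1 2.03 ± 0.58 (0.46). Their levels with BP in the label, in the order BP 1, BP 2 and MP+BP, were 70.1, 109 and 217 CPM for Col3a1 against 17.2 in MP and 31.4 in PD+MP, and 9.02, 10.3 and 7.48 CPM for Col13a1 against 2.70 and 1.18. Col1a2 (1.66 ± 0.51), Col6a3 (1.99 ± 0.78), Col4a1 (1.06 ± 0.36), Col4a2 (1.08 ± 0.39) and Col16a1 (1.08 ± 0.37) had unadjusted p under 0.05 and edgeR adjusted p between 0.46 and 0.50. Col2a1 differed by 0.39 ± 0.32 and Col4a5 by 1.06 ± 0.53 (edgeR adjusted p = 0.68 and 0.55). The clusters rich in Col1a1, which hold 3.11% and 3.80% of SyS-like cells in MP and PD+MP and 7.28 to 37.5% in the others, move with these differences, and their part in them was not tested. In the other SyS-like cells, Col1a1 lay at 10.2 CPM in BP 1, 11.3 in BP 2 and 327 in MP+BP. It lay there at 55.9 CPM in MP and 8.5 in PD+MP. Col3a1 lay at 4.86, 8.8 and 38.4 CPM against 7.52 and 7.3. The separation by label was thus absent for both genes outside these clusters, which were chosen by Col1a1. With n = 3 against 2, and 1 animal possible behind both BP tumours, label and tumour cannot be told apart. Sex is also mixed into this comparison. PD+MP carried Uty, and its SyS-like cells held Xist, a transcript of the inactive X chromosome, at 0.356 CPM against 1562 to 3853 CPM in the other tumours.

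**Figure D5:**
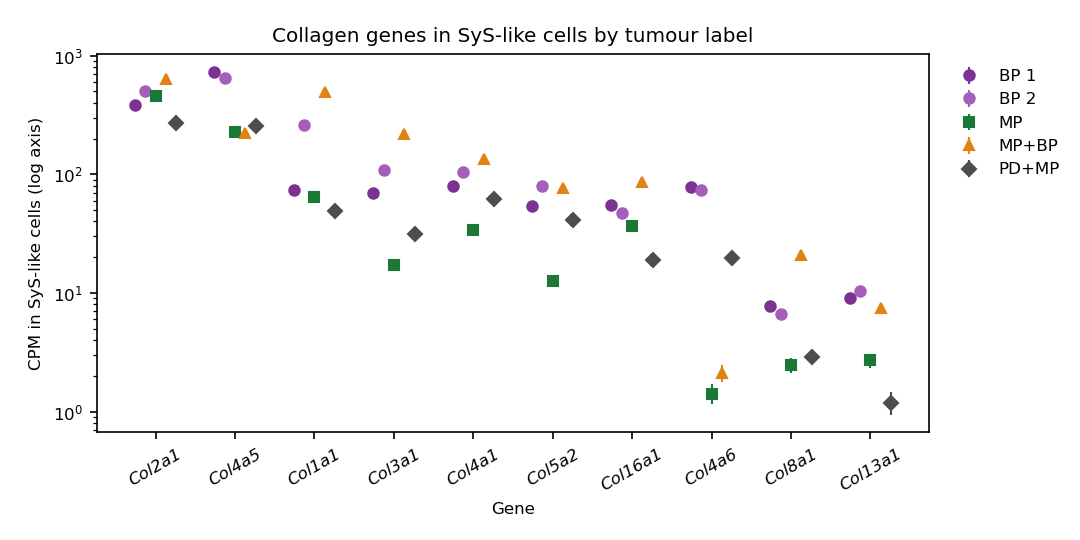
Level of selected collagen genes in SyS-like cells (CPM, log axis) in each of the 5 tumours, with 95% exact Poisson intervals that cover counting error only. Col1a1 and Col3a1 are higher in the 3 tumours with BP in the label than in MP and PD+MP, while Col4a6 is high in BP 1 and BP 2 and low in MP+BP.

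Genes that make, bind or partner collagen were read from lists. Of 32 genes for making collagen, 2 were higher and 16 lower in SyS-like than in pericyte-like cells, with a median log2 fold change of -0.71, where 19.9% of all genes were higher and 14.1% lower with a median of 0.23. Tll1, a protease that trims procollagen, was higher (9.96 to 33.3 against 0 to 6.39 CPM, 3.32 ± 0.40, edgeR adjusted p = 1.8e-05), as was P3h4, and both calls were lost with fibroblast-like cells added to the pericyte-like sums (0.22 and 0.42). P3h2, a prolyl hydroxylase that acts on type IV collagen, had the most negative change (0.128 to 1.11 against 29.1 to 82.5 CPM, -6.75 ± 0.31, edgeR adjusted p = 1.7e-09), followed by Adamts2, which trims fibrillar procollagens (-6.37 ± 0.48), and Loxl2, which cross-links type IV collagen (-5.23 ± 0.33). Of 10 receptors, 1 was higher (Ddr1, 28.2 to 64.3 against 11.7 to 32.8 CPM) and 4 lower, led by the integrin subunit Itga1 (9.95 to 20.3 against 871 to 1535 CPM, -6.72 ± 0.26, edgeR adjusted p = 3.5e-10). Of 15 basement membrane partners, 1 was higher, the laminin chain Lama1 (3.33 to 16.1 against 0 to 1.10 CPM, 3.6 ± 0.66, edgeR adjusted p = 0.00074), and 10 lower, led by the laminin chains Lama2 (-6.79 ± 0.42) and Lama4 (-6.02 ± 0.37) and by Nid1 (-5.63 ± 0.54), which links laminin to type IV collagen. Of 8 cartilage partners, 7 passed the filter, with 3 higher and 1 lower, and Matn4 changed by 2.50 ± 0.45 (edgeR adjusted p = 0.00065). Against endothelial-like cells the counts of higher and lower genes were 9 and 12, 3 and 4, 1 and 12, and 3 and 1 for the same lists, where 30.6% of all genes were higher and 21.5% lower, and between pericyte-like and endothelial-like cells they were 17 and 4 of 29, 6 and 0 of 8, 3 and 8 of 13, and 1 and 1 of 2, where 23.2% were higher and 22.7% lower. For the label BP no gene of these lists was called.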

How the data were processed

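Single-cell suspensions of 5 tumours were sequenced as 10x 3′ v3.1 libraries, and the authors deposited filtered matrices of raw UMI counts made with Cell Ranger 7.2.0 on mm10. The labels set the groups. Cells with under 750 genes (8488) or over 25% mitochondrial UMIs (666) and 2957 predicted doublets, at an expected 0.8% per 1000 cells, were removed, since the automatic threshold marked only 0 to 313 per tumour. The remaining cells were clustered in scanpy 1.11.5 (3000 genes without collagens, 30 components, 20 neighbours, Leiden resolution 1). A cluster was named from at least 3 fixed markers, and 2141 cells stayed unnamed. The naming rule was changed after a first rule left clusters with SyS markers unnamed. The collagen genes, gene lists and tests were chosen with earlier results of these data known.

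Counts were summed per class and tumour (at least 20 cells) and tested with edgeR 4.0.16 (R 4.3.3, TMM scaling, quasi-likelihood), with the tumour as a block in comparisons of classes, since both sums come from 1 tumour. P-values were adjusted over all genes tested by the Benjamini-Hochberg method. DESeq2 1.42.0, other scalings, filters, resolutions and leaving out each tumour were alternatives. The fits were tested on simulated data. Genes named with values were up to 4 of the highest per structural group, with Col2a1. Shares were tested with exact permutation tests. Intervals (95%, exact) cover counting error only. BP 1 and BP 2 differed beyond sampling noise (median chi-square 4.81 against 0.455). Coordinates are from GENCODE on GRCm38, and promoters from RefSeq. Exons of another gene on the same strand overlap Col3a1, Col7a1 and Col20a1, whose counts are less certain.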

Additional observations from a re-analysis of the deposited data

Results flagged for a closer look

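Of 64 groups of 5 tumours tested, 14 held 1 tumour far from the others by Dixon's criterion, where chance gives about 1 in 20. In SyS-like cells, MP+BP stood above the others for Col6a2 (20.9 CPM against 5.57 to 9.95) and Col8a1 (20.9 CPM against 2.46 to 7.73). In pericyte-like cells, MP+BP was high for Col2a1 (129 CPM against 17.9 to 25.5) and low for Col4a1 (2411 CPM against 3571 to 3864) and Col4a2 (966 CPM against 1352 to 1484). The pericyte-like cells of PD+MP, of which there were 39, were high for Col3a1 (3394 CPM against 2190 to 2461), Col8a1 (120.0 CPM against 44.2 to 63.9), Col14a1 (58.3 CPM against 4.42 to 12.8) and Col15a1 (543 CPM against 85.3 to 185). Col13a1 stood at 12.8 CPM in the pericyte-like cells of BP 2, against 0 to 1.55 CPM. In endothelial-like cells, Col5a2 was low in BP 1 (21.2 CPM against 51.1 to 61.0) and Col8a1 was high in PD+MP (130.0 CPM against 9.23 to 21.6). The SyS-like share in PD+MP was low for network collagens other than type IV (14% against 72.9 to 92.2%) and for FACITs (49.5% against 84.8 to 95.3%).

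The difference between SyS-like and endothelial-like levels had opposite signs by label for Col5a2, with means of 28.4 CPM in tumours with BP in the label and -31.1 CPM in the others, 59.5 CPM apart. For Col6a2 the means were 3.16 and -13.6 CPM, 16.7 CPM apart. These differences by label were not tested.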

How the results depend on the processing

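The count of collagen genes higher in SyS-like than in pericyte-like cells was 8 and fell to 4 with DESeq2, to 5 with SyS-like sums thinned to the size of the pericyte-like sums, and to 3 (Col2a1, Col4a5 and Col4a6) when pericyte-like and fibroblast-like cells were pooled. Leaving out 1 tumour gave 5 to 8, with 5 without BP 1 and without BP 2. The genes lower (23) numbered 22 to 23 when 1 tumour was left out. Between pericyte-like and endothelial-like cells, 1 gene was lower, 3 with no filter on low counts (Col13a1, Col15a1 and Col28a1), and 1 to 2 when 1 tumour was left out (2 without PD+MP, adding Col15a1), and the genes higher (22) numbered 19 to 22. For the label BP, the 0 genes called by edgeR became 4 with DESeq2 and 0 to 3 when 1 tumour was left out (3 without MP, namely Col12a1, Col13a1 and Col27a1). The pericyte-like against endothelial-like difference changed sign for Col4a1 without BP 1 and with doublets kept (-0.007), and for Col4a2 without MP+BP. When 1 tumour was left out it ranged from -0.015 to 0.298 for Col4a1 and from -0.233 to 0.069 for Col4a2. The cause of these changes was not tested. Apart from DESeq2, the counts of genes under the alternatives are given without the share of all genes called at the same setting. Whether they moved more than the calls on all genes was not tested.

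Without the replicate block, which pairs the sums of 1 tumour, the comparison of SyS-like with pericyte-like cells gave 4 genes higher and 21 lower, that with endothelial-like cells 12 and 12, and pericyte-like against endothelial-like cells 14 and 1. For this setting too, the share of all genes called is not given. The comparison by label could not be paired, because the labels give no replicate numbers and nothing else in them that pairs tumours across the label groups.

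The SyS-like share of collagen UMIs (69.6%) was 65.3 to 75.0% when 1 tumour was left out. With the naming rule first tried, added after seeing the data, it was 53.8% ± 6.75, and with unnamed clusters counted as SyS-like, also added then, 70.9%. With 5 tumours, 39 pericyte-like cells in PD+MP and 1 tumour with fibroblast-like cells, low genes and the label comparison are the least certain.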
